A study of Mus musculus with 7 samples.

Results

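Visceral (VAT), subcutaneous (SCAT) and interscapular brown (BAT) adipose tissue were compared with liver, kidney, cortex and skeletal muscle, to describe which genes had a higher level in every fat depot than in any tissue outside fat. The comparison rested on 7 RNA-Seq libraries, 3 of fat and 4 of other tissues. All came from mice of genotype wt and strain C57BL/6 (C57BL/6N in the methods of the study), fed the diet labelled NCD and aged 36 weeks. Each tissue had 1 library of whole-tissue RNA depleted of ribosomal RNA, and the labels do not say whether the 7 tissues came from the same animal. No tissue therefore has a replicate, no test was run, and every value below describes these libraries. In whole tissue, fewer cells of a type and less RNA per cell cannot be told apart. Levels are FPKM, fragment numbers corrected for the length of the transcript and the size of the library. The table holds no fragment counts, so the depth of each library is unknown and no interval could be given.

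A gene was called higher in fat when its lowest depot had at least 1 FPKM and lay at least 4-fold above its highest other tissue. This gap was taken as log2(lowest depot FPKM + 0.1) minus log2(highest other FPKM + 0.1), so that a gap of 2 is 4-fold, and it understates the difference of genes with low values. The mirror rule gave the genes lower in fat. Of the 50226 gene names in the table, 19115 reached 1 FPKM in any tissue and could be compared. By this rule 30 names (0.157%) were higher and 6 of 19088 (0.0314%) were lower in all 3 depots. The lowest depot lay above all other tissues by any amount for 601 names (3.14%), and at least 2-fold above them for 71 (0.371%), while the highest depot lay below all others for 660 (3.46%). The median gap over all compared names was -2.00.

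Adipocytes store energy as triglyceride in a lipid droplet that is coated with perilipins and opened by lipases when hormones raise cyclic AMP, and they release hormones such as adiponectin and leptin. White fat cells hold a single large droplet and mainly store and release fatty acids. Brown fat cells hold many small droplets and abundant mitochondria, and burn fatty acids for heat through uncoupling protein 1. The nuclear receptor PPARG drives the formation of both kinds of cell and controls many of the genes of the droplet.

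The labels were checked against known markers first. Adipoq, the gene of adiponectin, had 330.25 FPKM in VAT, 109.6 in SCAT and 258 in BAT, against 14.1 in muscle, 1.34 in kidney, 0.443 in cortex and 0.152 in liver. Lep, the gene of leptin, had 51.6 FPKM in VAT and 26.6 in SCAT, but 2.02 in BAT, which is below the 3.65 of muscle. Adipoq thus marked all 3 depots and Lep only the 2 white ones. Ucp1, the uncoupling protein of brown fat, had 6552 FPKM in BAT, 0.309 in VAT and 0.324 in SCAT. The summed levels of markers fixed for hepatocytes, kidney tubule, neurons and glia, and muscle fibres were highest in the tissue of that name, at 26422, 25682, 779.9 and 28256 FPKM, although Alb has no usable value in liver and Myh4 none in muscle.

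Markers of other cells stood out in single depots. VAT summed to 2646 FPKM for 8 epididymis markers, of which 4 reached 1 FPKM and Lcn9 and Cst11 were listed at 0. No other library was above 1.99. VAT also had 698 FPKM over 8 hepatocyte markers and 69.1 over 9 markers of mesothelium and epithelium, against at most 77.7 and 1.73 in the other depots. SCAT had 296 FPKM over 9 lymphocyte markers and 158 over 8 pancreatic acinar markers, against at most 17.0 and 11.6 in all other libraries. BAT had 713 FPKM over 7 muscle fibre markers, and the white depots 66.7 and 76.5. Macrophage markers summed to between 81.5 and 136 FPKM in the depots and 18.6 to 74.1 outside fat, and endothelial markers to 58.5 to 93.7 and 9.70 to 66.7. Red blood cell markers ranged from 939 to 2410 FPKM in fat and from 160.5 to 1310 elsewhere. Because a call needed all 3 depots, a gene that was high in 1 depot alone was not called, and none of the markers of the other cell types was called except Myh4, whose value in muscle is missing.

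To show the start regions of genes that shared the pattern, the promoters of the 3 called genes with the largest gap are printed, among those called from a locus on the annotated strand and with an entry in RefSeq, together with those of the markers Adipoq and Lep. Each runs from 250 bases before to 50 bases after the transcript start in GRCm38.p6, 5′ to 3′ on the gene's strand. They lie at chr6:60403658-60403957 (minus strand) for A530053G22Rik, chr7:79732727-79733026 (minus) for Plin1, chr6:113435711-113436010 and chr6:113434715-113435014 (both minus) for the 2 starts of Cidec, chr16:23146286-23146585 (plus) for Adipoq and chr6:29059971-29060270 (plus) for Lep. Capitals mark matches on either strand to the C/EBP letters TTGCNNAA, the nuclear receptor half-site AGGTCA, its tandem with 1 base between (DR1, AGGTCANAGGTCA, which contains the half-site) or TATAAA.
A530053G22Rik: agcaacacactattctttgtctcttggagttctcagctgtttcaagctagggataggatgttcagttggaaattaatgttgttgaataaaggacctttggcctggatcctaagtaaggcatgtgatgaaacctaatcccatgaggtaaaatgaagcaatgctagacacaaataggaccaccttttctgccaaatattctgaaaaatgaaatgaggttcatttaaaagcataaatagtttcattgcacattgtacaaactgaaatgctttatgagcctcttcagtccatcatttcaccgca
Plin1: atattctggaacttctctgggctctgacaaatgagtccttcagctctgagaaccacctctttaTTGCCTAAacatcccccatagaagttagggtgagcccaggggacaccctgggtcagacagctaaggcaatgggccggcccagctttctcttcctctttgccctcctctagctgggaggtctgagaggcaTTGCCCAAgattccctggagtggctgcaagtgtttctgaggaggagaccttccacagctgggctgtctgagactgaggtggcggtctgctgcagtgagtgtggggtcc
Cidec, first start: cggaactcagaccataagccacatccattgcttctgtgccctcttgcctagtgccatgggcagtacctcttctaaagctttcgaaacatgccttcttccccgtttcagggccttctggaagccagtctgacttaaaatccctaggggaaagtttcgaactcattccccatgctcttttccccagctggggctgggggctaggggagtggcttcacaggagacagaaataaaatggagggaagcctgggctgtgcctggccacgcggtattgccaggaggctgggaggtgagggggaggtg
Cidec, second start: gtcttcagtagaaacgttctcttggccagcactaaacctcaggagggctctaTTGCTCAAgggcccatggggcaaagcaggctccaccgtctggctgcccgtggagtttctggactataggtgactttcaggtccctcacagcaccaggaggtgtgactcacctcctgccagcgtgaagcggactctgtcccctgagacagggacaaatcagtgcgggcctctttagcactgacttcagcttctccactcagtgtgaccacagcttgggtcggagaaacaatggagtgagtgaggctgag
Adipoq: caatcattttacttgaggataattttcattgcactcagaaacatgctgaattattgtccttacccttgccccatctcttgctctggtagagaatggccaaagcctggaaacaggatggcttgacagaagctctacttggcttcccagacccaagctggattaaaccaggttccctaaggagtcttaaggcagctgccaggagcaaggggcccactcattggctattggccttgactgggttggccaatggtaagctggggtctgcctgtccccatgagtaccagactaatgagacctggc
Lep: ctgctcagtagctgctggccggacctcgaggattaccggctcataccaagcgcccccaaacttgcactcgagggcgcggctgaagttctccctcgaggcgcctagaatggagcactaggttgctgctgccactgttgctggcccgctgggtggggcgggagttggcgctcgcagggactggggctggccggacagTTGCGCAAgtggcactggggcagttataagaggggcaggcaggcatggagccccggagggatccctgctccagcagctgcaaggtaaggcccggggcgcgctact

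Plin1 held 2 C/EBP matches, which began at -187 and -58 from the start. Lep held 1 such match at -55, which fits the letters on both strands, and the second start of Cidec 1 at -198. The windows of Adipoq, A530053G22Rik and the first start of Cidec held none of the 4 motifs. Of the 21 genes called from a locus on the annotated strand, 13 had an entry, with 17 promoters among them. TTGCNNAA was found in 5 of the 17, belonging to 5 genes, and in 10.8% of all 32851 promoters. Of these 5 genes, Myh4 and Myh8 share 1 locus and have no usable value in muscle. AGGTCA was found in 3 promoters of 2 genes and in 16.3% of all, TATAAA in 4 and in 13.6%, and DR1 in 0 and in 0.0396%. These matches describe the letters in a short window and say nothing of whether a factor binds there.

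The 30 called names included genes known from the fat cell, such as Plin1, Cidec, Adipoq, Fabp4, Pparg, Adig and Prkar2b. For 5 names (Apoc2, Ttn, Myh4, Myh8 and Apoc1) liver or muscle has no usable value, since the table lists them there at 0 with the status LOWDATA, which was treated as missing. They were called on the remaining tissues alone, and 25 names were called with a value in all 7 libraries. For others the locus with the highest level was read as lying opposite to the annotated gene, as in Scd2 and Fabp9. Read from the order of the table, 21 of the 30 loci lay on the annotated strand, 7 on the opposite strand and 2 belonged to names absent from the annotation. With loci of the annotated strand only, 21 of 16619 names (0.126%) were called, all of them among the 30.

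**Figure D1:**
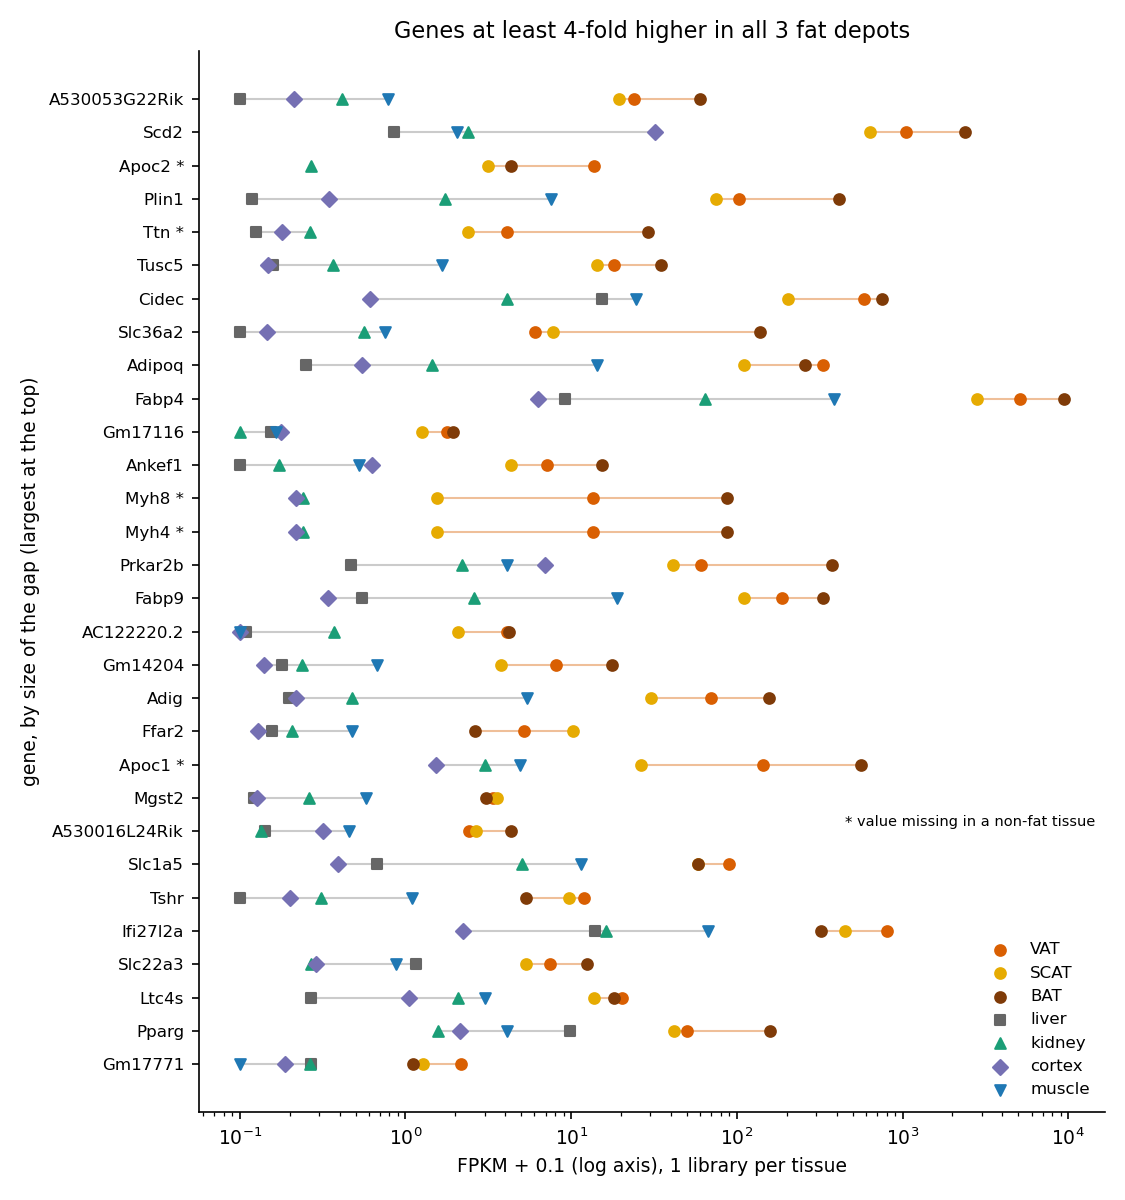
FPKM + 0.1 (log axis) of the 30 genes called higher in fat, 1 point per library, with depots as circles and other tissues as other symbols; genes marked with an asterisk have a missing value outside fat. For every gene the 3 circles lie to the right of all other points, SCAT is the lowest depot of 22 genes, and muscle is the nearest other tissue of 18.

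Lipid droplet genes were the first group. Plin1, which coats the droplet and gates lipolysis, had 102.5 FPKM in VAT, 74.8 in SCAT and 413 in BAT, and 7.41 in muscle, 1.64 in kidney, 0.244 in cortex and 0.0193 in liver. Its lowest depot was 10.1-fold above muscle, a gap of 3.32 on the log2 scale. Cidec, which fuses droplets into larger ones, had 587, 204 and 746 FPKM in VAT, SCAT and BAT, against 24.7 in muscle and 15.3 in liver, and the lowest depot was 8.26-fold above muscle. The locus of Plin1 is chr7:79718697-79733595 and that of Cidec chr6:113423232-113439420 in the table. These were 2 of the 20 listed genes of the droplet and lipolysis (10%, against 0.157% of all compared names), whose median gap was -1.15, against -2.00 over all.

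Other genes of the list did not reach 4-fold. Lipe, the hormone-sensitive lipase, reached 84.3, 56.6 and 248.8 FPKM in VAT, SCAT and BAT with 15.5 in muscle, and at 3.65-fold it missed the threshold. Pnpla2, the lipase that starts the breakdown of triglyceride, had 68.4 FPKM in SCAT and 69.2 in muscle. Aqp7, a channel for glycerol, was 2.52-fold above muscle in its lowest depot. Plin2 and Plin5, droplet coats of many tissues, had 287 and 20.9 FPKM in liver, more than in VAT (78.7 and 3.35) or SCAT (52.9 and 3.73) and less than in BAT (549.6 and 102.1). Cidea ranged from 0.786 FPKM in VAT to 832 in BAT, and lay below kidney (2.25) in VAT.

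Of 18 compared genes for fatty acid uptake and triglyceride synthesis, Fabp4 was called (5.56%, against 0.157% of all compared names). This carrier of fatty acids was the most abundant called gene, with 5143 FPKM in VAT, 2829.8 in SCAT and 9367 in BAT, against 388 in muscle, 64.4 in kidney, 9.09 in liver and 6.16 in cortex (gap 2.87). Cd36, the fatty acid transporter, had 602 FPKM in SCAT and 443 in muscle, a gap of 0.44. Gpihbp1, which holds lipoprotein lipase on capillaries, had a gap of 0.61 and Dgat1, the last enzyme of triglyceride synthesis, of 0.12. The median gap of the list was -2.24, close to the -2.00 of all genes. Gpd1, Agpat2, Dgat2 and Gpam lay below liver or muscle in the white depots, with 865, 473, 556 and 132 FPKM in BAT. Acsl1 had no usable locus, because its only locus has the status FAIL.

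Among 16 compared genes of de novo lipogenesis, Scd2 was called (6.25%, against 0.157% of all compared names), and its call depends on the strand. Scd2 is a desaturase that makes monounsaturated fatty acids. The locus with the highest level under its name, chr19:44257556-44309327, had 1049 FPKM in VAT, 639 in SCAT and 2371 in BAT, with 31.9 in cortex and at most 2.28 elsewhere, a gap of 4.32. This locus was read as lying opposite to the annotated gene, chr19:44293674-44306864 on the plus strand. The locus on the annotated strand had 3.37, 0.952 and 3.11 FPKM in the depots and 13.7 in cortex, a gap of -3.71, so the direction turned with the choice of locus. The related Scd1 could not be compared, since all 3 depots are listed at 0 with LOWDATA, while liver had 464 FPKM. Fasn, the fatty acid synthase, had 427 FPKM in BAT, 16.1 in VAT and 4.07 in SCAT, and cortex had 7.18. G6pdx, which supplies NADPH, had a gap of 1.05. By any amount, 4 of the 16 lay above every other tissue (25%, against 3.14% of all genes), and the median gap was -1.60.

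Adiponectin was the 1 called gene of 18 adipokines and secreted proteins (5.56%, against 0.157% of all compared names). Adipoq lies at chr16:23146313-23161472, and its lowest depot, SCAT, was 7.75-fold above muscle (gap 2.95). Retn, the gene of resistin, had 206 FPKM in VAT, 82.0 in SCAT and 19.5 in BAT, 1.97-fold above muscle at 9.91. Cfd, the complement factor adipsin, had 1963, 2241 and 336 FPKM in VAT, SCAT and BAT, and 237 in muscle. Lep and Sfrp5, an inhibitor of WNT signalling, were below muscle in BAT, with gaps of -0.83 and -1.91. Itih5 and Nrg4, a growth factor, had gaps of 1.35 and 1.12. Lpl, the lipoprotein lipase, had 102.3 FPKM in SCAT and 107 in muscle. Of the 18, 7 lay above every other tissue in all depots (38.9%, against 3.14% of all genes), and the median gap was -0.63.

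Pparg, the regulator of fat cell formation, was the called gene among 21 compared adipogenic transcription regulators (4.76%, against 0.157% of all compared names). It had 49.8 FPKM in VAT, 41.4 in SCAT and 158.4 in BAT, and 9.69 in liver, 4.01 in muscle, 2.03 in cortex and 1.47 in kidney (gap 2.08, just inside the threshold). Its locus is chr6:115316250-115525353. Ebf1, a factor that acts with it, had 10.1, 12.0 and 18.2 FPKM against 5.28 in muscle. Ebf2 and Ebf3 had 2.30 and 1.92 FPKM in their lowest depot and 2.84 and 3.53 in muscle. Cebpa, another driver of fat cell formation, had 0.642, 0.388 and 1.62 FPKM in VAT, SCAT and BAT and 1.53 in liver, and Cebpb and Cebpd stayed under 1 FPKM in every tissue. The median gap of -1.91 was close to that of all genes.

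Receptors and insulin signalling held 3 called genes of 25 (12%, against 0.157% of all compared names). Tusc5, the table's older name for Trarg1, which takes part in the traffic of the glucose transporter GLUT4, had 18.1, 14.3 and 34.9 FPKM in VAT, SCAT and BAT and 1.55 in muscle (gap 3.12). Tshr, the receptor of thyrotropin, had 11.8, 9.53 and 5.21 FPKM and 1.00 in muscle, and was listed at 0 in liver (gap 2.27). Ffar2, a receptor of short-chain fatty acids, had 5.07, 10.18 and 2.53 FPKM, with 0.378 in muscle (gap 2.46), but from a locus read as opposite to its gene. On the annotated strand its gap was -0.05. Adrb3, the adrenergic receptor of fat cells, was 3.04-fold above liver in its lowest depot. Slc2a4, the gene of GLUT4, had 6.60, 4.69 and 54.2 FPKM in the depots and 187 in muscle. Of the 25, 10 lay above every other tissue in all depots (40%, against 3.14% of all genes), with a median gap of -0.85 against -2.00.

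No gene was called among 10 caveolae genes, 23 genes of stroma and matrix or 15 thermogenic genes. The share over all compared names was 0.157%, so the absence of calls says nothing particular of these lists. Caveolae are small pits of the plasma membrane, dense in fat cells, endothelium and muscle. Cav1, their main coat protein, had 127, 47.8 and 167 FPKM in VAT, SCAT and BAT and 38.2 in muscle. Ehd2, Ptrf, Sdpr and Cav2 also lay above muscle in every depot, with gaps of 0.74, 0.37, 0.57 and 0.54, and muscle was the highest other tissue for 9 of the 10 genes, against 33.7% of all compared names. The caveolae list had the highest median gap of the 9 lists, at 0.01. In the stroma list, Lama4, a chain of the basement membrane protein laminin, had the largest gap (0.86), and muscle was the highest other tissue for 17 of 23. In the thermogenic list, Ucp1, Cox8b and Cox7a1 had 6552, 11478 and 1780.0 FPKM in BAT, and at most 0.324, 140.1 and 10.4 in the white depots. Their list had the lowest median gap, -4.46. Over all 9 lists, 9 of 162 compared genes (173 listed) were called, or 5.56% against 0.157% of all compared names. By any amount, 44 lay above every other tissue (27.2% against 3.14%), and the median gap was -1.49 against -2.00. The lists were drawn up from genes known from fat, with earlier results of these data in view, and the rule itself chose the called genes, so these shares are a description.

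**Figure D2:**
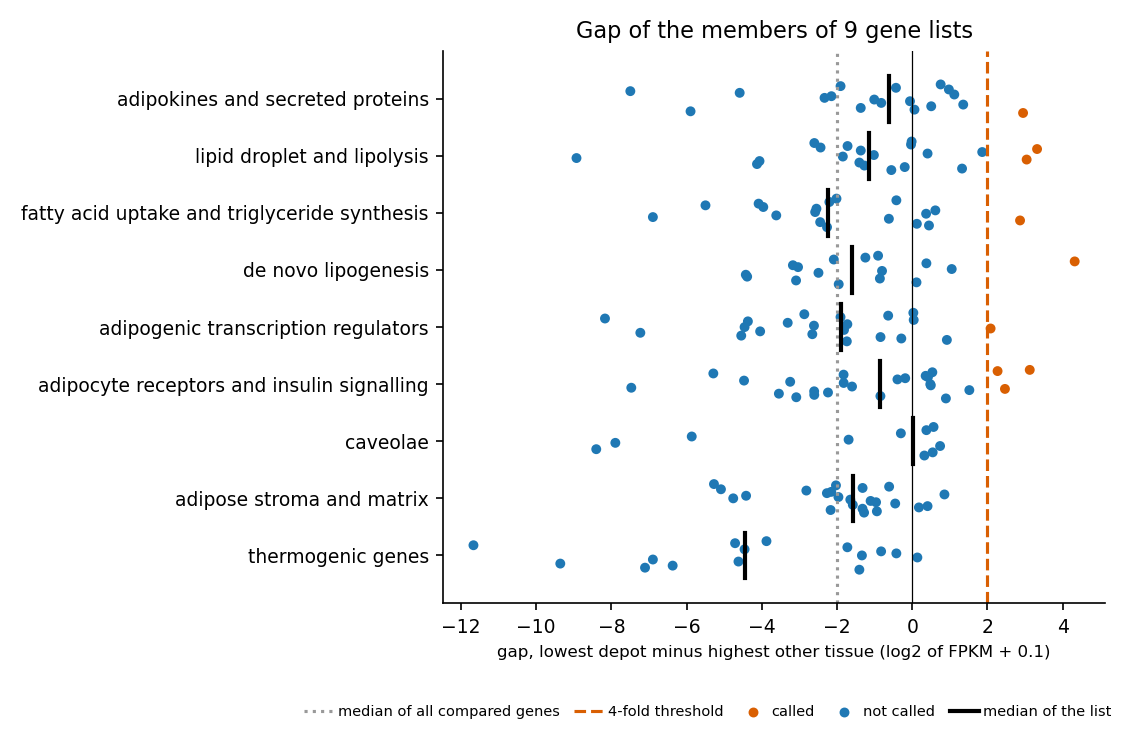
Gap of each compared member of 9 gene lists, as log2 of the lowest depot minus log2 of the highest other tissue after adding 0.1 FPKM, with the median of each list as a bar. The 9 called members lie to the right of the dashed 4-fold line, 2 of them in the droplet list and 3 among the receptors, and the dotted line is the median of all genes at -2.00.

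By the rule used here, the largest gap of all belonged to a noncoding transcript, while under some other settings that of Scd2 was larger. A530053G22Rik, annotated as a processed transcript at chr6:60279043-60403707 on the minus strand, had 23.7 FPKM in VAT, 19.3 in SCAT and 59.5 in BAT. Muscle had 0.681 FPKM, kidney 0.312, cortex 0.113, and liver was listed at 0. The lowest depot was 28.4-fold above muscle, a gap of 4.64. The table holds 2 further loci under its name on the other strand, with 0.924 to 5.11 FPKM in fat and at most 0.169 elsewhere.

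Among the called protein-coding genes outside the lists, Slc36a2, a proton-coupled amino acid transporter, had 5.95, 7.69 and 137.9 FPKM in VAT, SCAT and BAT and 0.649 in muscle (gap 3.01). Prkar2b, a regulatory subunit of the protein kinase through which cyclic AMP acts, had 60.2, 41.3 and 373 FPKM, with 6.87 in cortex as the highest other tissue (gap 2.57). Adig, the gene of adipogenin, had 69.7, 30.4 and 155.5 FPKM and 5.34 in muscle (gap 2.49). Slc1a5, a transporter of glutamine and other neutral amino acids, had 89.5, 58.1 and 57.9 FPKM and 11.3 in muscle (gap 2.34). The loci of all 4 lay on the annotated strand.

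Mgst2, a microsomal glutathione transferase, had 3.30, 3.453 and 2.96 FPKM in VAT, SCAT and BAT and 0.476 in muscle (gap 2.41). Ltc4s, the leukotriene C4 synthase, had 20.2, 13.5 and 18.1 FPKM and 2.92 in muscle (gap 2.18). Ifi27l2a, a gene induced by interferon, had 807, 446 and 322 FPKM and 67.1 in muscle (gap 2.26). Ankef1 had 7.03, 4.26 and 15.2 FPKM and 0.532 in cortex (gap 2.79), but a second locus on the other strand, shared with the name Gm14053, had 14.4 FPKM in cortex. With the loci of each name summed, the gap of Ankef1 turned to -0.41. Slc22a3, an organic cation transporter, had 7.35, 5.25 and 12.4 FPKM and 1.06 in liver (gap 2.21) on the opposite strand, and a gap of 1.68 on its own.

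Several calls share a locus or a family with another gene. Fabp9, a fatty acid binding protein known from testis, was called from a locus with the same bounds as that of Fabp4, chr3:10179851-10208738, read as the strand opposite to both genes. That locus had 187 FPKM in VAT, 109.96 in SCAT and 332 in BAT (gap 2.53), whereas the locus of its name on the annotated strand had 2.52, 0.124 and 0.0299 FPKM and a gap of -2.71. Gm14204 was called from a locus that it shares with Adig, opposite to Adig, at 7.96, 3.69 and 17.5 FPKM (gap 2.49). Without loci of several names its gap was -2.09. Apoc1 and Apoc2, apolipoproteins of triglyceride-rich particles, lie in one merged locus span, and liver, their main source, has no usable value for either. Apoc1 had 144, 26.4 and 559.9 FPKM in the depots, and Apoc2 13.7, 3.07 and 4.22 from a locus opposite to its gene. On the annotated strand Apoc2 had 12.0, 0.772 and 1.13 FPKM, a gap of 0.66 and no call. Ttn, Myh4 and Myh8 encode proteins of the muscle sarcomere, have no usable value in muscle, and were highest in BAT at 29.0 FPKM for Ttn and 87.5 for the locus that Myh4 and Myh8 share. The locus of Ttn was also read as opposite to its gene, and on the annotated strand its gap was 1.68 and it was not called.

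Of names with 1 of 5 lncRNA biotypes, the 5 largest gaps belonged to Gm17116, 2610016A17Rik, 4732471J01Rik, Pmepa1os and Gm44079, all annotated as antisense. Gm17116 had 1.68, 1.16 and 1.83 FPKM in VAT, SCAT and BAT and at most 0.0768 elsewhere (gap 2.83). It was the called one of the 5 and overlaps Prss52, which had 1.92, 1.55 and 2.41 FPKM and a gap of 1.55. 2610016A17Rik had 17.9, 6.03 and 6.85 FPKM and 1.49 in muscle (gap 1.95). 4732471J01Rik had 22.7, 18.005 and 63.3 FPKM and 4.95 in muscle (gap 1.84, against 1.86 for Lipe). It overlaps Lipe and also Ceacam1, Ceacam2, Cxcl17, Gm15495, Gm20949 and Gm5587. Pmepa1os had a gap of 1.62 and Gm44079, which overlaps Pparg, of 1.46. The smallest gap inside the threshold was 2.04, that of the processed pseudogene Gm17771 (1.01 FPKM in BAT), whose locus was read as opposite to its gene. Just outside lay Ltbp2 at 1.98 and Lat2 at 1.96. Of 13796 protein-coding genes whose locus on the annotated strand reached 1 FPKM, 6627 also had a locus on the other strand. In these 6627 the opposite locus had a median of 43.5% of the FPKM of the annotated one. Where both strands have a locus, reads of an antisense gene and its partner could therefore not be told apart here. The opposite locus had the higher level for 1918 of the 6627. AC122220.2 and A530016L24Rik were called at 1.97 and 2.30 FPKM in their lowest depot (gaps 2.49 and 2.40).

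**Figure D3:**
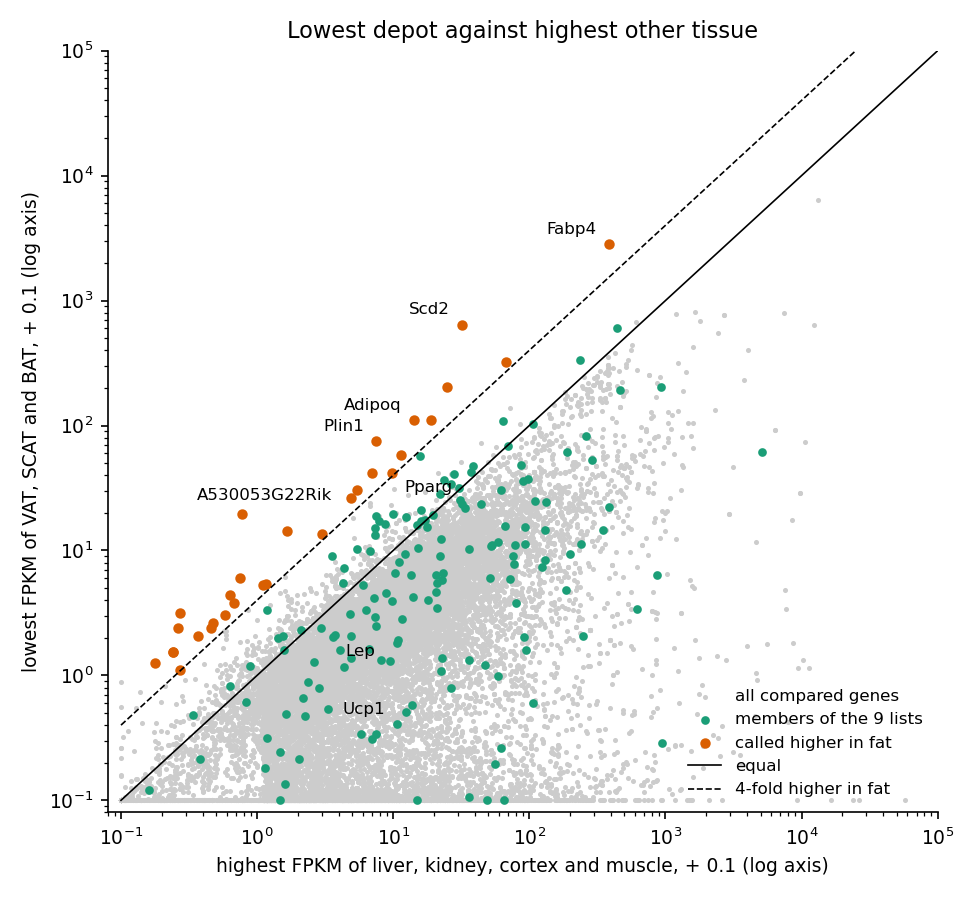
Lowest FPKM of the 3 depots against the highest FPKM of the 4 other tissues, both + 0.1 on log axes, for 19115 genes in grey, members of the 9 lists in green and the 30 called genes in orange. Called genes lie above the dashed 4-fold line, and Lep (2.02 against 3.65 FPKM) and Ucp1 lie below the line of equal levels.

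The called genes differed among the depots. SCAT was the lowest depot for 22 of 30, BAT for 6 and VAT for 2, and BAT was the highest for 21, VAT for 7 and SCAT for 2. The highest depot was a median of 3.44 times the lowest (3.02 for the 25 genes with all values), and the ratio was under 2 for 5 genes. At one end Mgst2 varied 1.17-fold, Ltc4s 1.49-fold, Slc1a5 1.55-fold and Gm17116 1.59-fold. At the other end of the 25, Slc36a2 varied 23.2-fold and Prkar2b 9.02-fold, both highest in BAT. For 13 of the 30 genes, and 9 of the 25 with all values, BAT had over 2 times the level of both white depots. Ffar2 had the opposite order, with 10.18 FPKM in SCAT and 2.53 in BAT, and Tshr and Ifi27l2a were highest in VAT and lowest in BAT.

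Muscle was most often the highest tissue outside fat. It was so for 18 of the 30 called genes, kidney for 5, cortex for 4 and liver for 3, and over all compared names muscle was the highest other tissue for 33.7%. Of the 25 genes with all values, muscle was the highest for 17 and kidney for 1, since 4 of the 5 genes of kidney (Apoc2, Ttn, Myh4 and Myh8) have no value in muscle. In the 25 genes with all values, muscle had a median of 12.9% of the level of the lowest depot, kidney 3.20%, cortex 0.912% and liver 0.742%. These levels are the ones the rule used, which keeps the share of a called gene under about 25%. In the 9 called members of the lists the share in muscle ran from 0.304% to 19.2%, with a median of 12.1%. Over all 158 list members with values it was not even, with a median of 102%, and 80 had more in muscle than in their lowest depot. Over the 18 adipokines it ran from 12.9% for Adipoq to 507%, with a median of 55.0%. Over the 17197 compared names for which the share could be taken, the median was 189%. Muscle also had the highest level of both fat markers outside fat, with 14.1 FPKM of Adipoq and 3.65 of Lep. The part of fat cells within the muscle sample in these values was not tested.

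**Figure D4:**
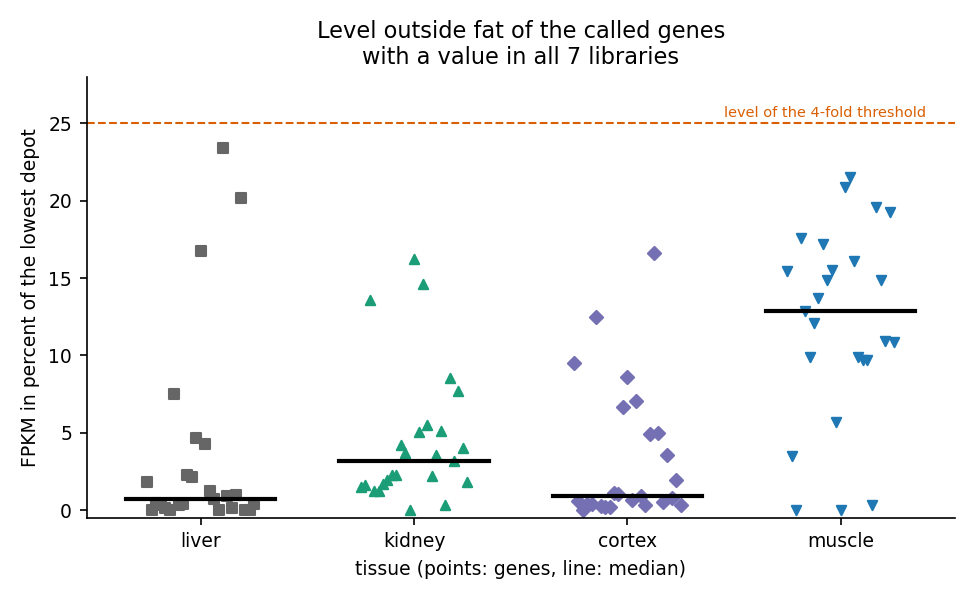
FPKM in each tissue outside fat as a percentage of the lowest depot, for the 25 called genes with a value in all 7 libraries, with the median as a bar. Muscle has the highest median (12.9%), the other medians lie between 0.742% and 3.20%, and the dashed line is the level of the 4-fold threshold.

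The number of calls turned on single libraries. Without muscle 140 of 18676 names (0.75%) were called higher in fat, 110 more than with it, and the count for the 9 lists was 28. Among the names added were Cfd, Retn, Lep, Lipe, Cav1, Ehd2, Ebf1, Col1a1 and Col3a1, and also Mb, the gene of myoglobin, with 544 FPKM in muscle and 21.7 to 32.5 in fat. Without BAT 82 of 18980 (0.432%) were called, 13 of them in the lists, and Lep, Cfd, Retn and Npr3 were added. Without SCAT there were 49 calls (14 in the lists), without liver 53 and without cortex 45, while leaving out VAT or kidney gave 36 and 34. Leaving out a library cannot lower a gap, so no call could be lost except that of Apoc2, which had no other tissue left without kidney. Genes lower in fat went from 6 to 33 without muscle, 21 without VAT or BAT, 20 without cortex and 16 without liver or kidney, and stayed at 6 without SCAT.

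**Figure D5:**
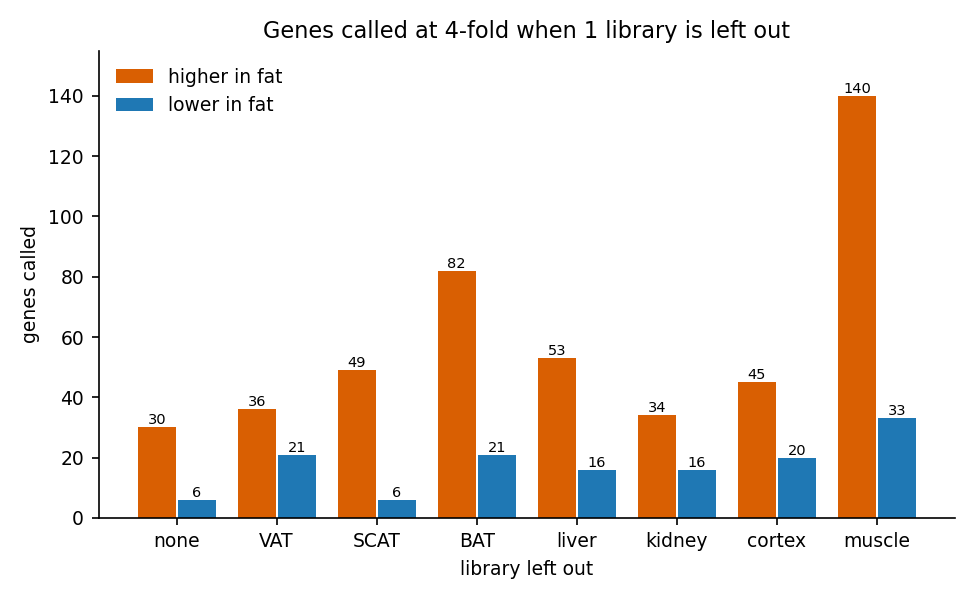
Number of genes called at 4-fold in each direction with all 7 libraries (none) and with 1 library left out, as bars from 0. Leaving out muscle gives 140 genes higher and 33 lower in fat, against 30 and 6 with all libraries.

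The 6 genes lower in all depots had, by the rule, at least 1 FPKM in all 4 other tissues and a lower level in every depot. Bdh1, which interconverts the ketone bodies, had 1.80, 0.708 and 0.508 FPKM in VAT, SCAT and BAT, against 152 in liver, 41.5 in kidney, 23.6 in muscle and 13.9 in cortex, so that the lowest other tissue was 7.72-fold above VAT (gap 2.88). Aqp4, a water channel, had 0.253, 0.0559 and 0.745 FPKM in the depots and 7.47 to 31.4 elsewhere (gap 3.16), from a locus read as opposite to its gene; on the annotated strand the gap was 1.83. Morn4 had at most 1.49 FPKM in fat and at least 9.07 elsewhere, a gap of 2.53. Neu2, a sialidase, had at most 0.129 FPKM in fat and 1.19 to 3.70 elsewhere (gap 2.49). Klf12, a transcription factor, had 0.153 to 0.212 FPKM in fat and 1.42 to 3.86 elsewhere (gap 2.28). Sel1l3 had 2.14 FPKM in VAT, 0.0726 in SCAT and 0.435 in BAT and 8.91 to 14.98 elsewhere (gap 2.01).

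The next 9 genes in this direction did not reach 4-fold. Clcn2, a chloride channel, had 0.584 to 1.20 FPKM in fat and 4.91 to 40.4 elsewhere (gap 1.94), and Hook1, an adaptor of microtubule transport, 1.75 to 3.17 and 11.6 to 27.8 (gap 1.84). Cdk18, Mb21d2, Cobl, Nceh1, Ptpn3, Dnph1 and Cpox followed with gaps from 1.72 to 1.42. Cpox, an enzyme of haem synthesis, had 0.952 to 1.46 FPKM in fat and 36.8 in liver. Nceh1, a hydrolase of cholesterol esters, had 1.29 to 2.14 FPKM in fat and 6.10 to 22.6 elsewhere. Of the 162 compared members of the 9 fat lists 0 were called lower, where the share over all names was 0.0314%, so the count says nothing particular of the lists.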

How the data were processed

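RNA-Seq libraries of rRNA-depleted total RNA were analysed for 7 mouse tissues, with 1 library per tissue, grouped as the labels name them. According to the methods of the study, adapters were removed with flexbar, reads of ribosomal RNA were filtered out with Bowtie2, and the rest was aligned to GRCm38 with STAR, assembled with Cufflinks and compared with Cuffdiff. The submitters' processing notes name Bowtie2 2.2.9, STAR 2.6.0c and Cufflinks 2.2.1. The authors deposited FPKM per locus in Cuffdiff's table of 21 pairwise comparisons, 94339 loci in all, and each tissue has the same value in all 6 of its comparisons. The table's log2 fold changes, test statistics, p-values, q-values and significance calls were not used. It gives no fragment counts, so depth and precision are unknown.

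Loci with several names were kept under each, each name was represented by its locus of highest FPKM, the 151 loci with the status FAIL were left out, and 225 zeros with the status LOWDATA (too little or too complex data to estimate) were treated as missing. Zeros of other genes are listed values. The table has no strand column. Since loci are listed in an ascending series per strand on each chromosome, their order gave the strand. By this reading 75.3% of 61959 matches of names to loci were on the strand of the annotation, and 91.9% of the names were found in GENCODE M21. The strand setting of Cuffdiff is not given in the sources used here, so what a locus opposite to its gene holds is uncertain, and so is each change of a gap with the strand.

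A gene was called at 1 FPKM and a gap of 2 on the scale log2(FPKM + 0.1). No test was run. The members and gene lists were chosen with earlier results of these data known. Genes named are list members where called or bearing on a role, the 25 called genes with the largest gap, the 10 most abundant, the 15 with the largest gap lower in fat, 5 lncRNAs, 3 on each side of the threshold and the marker genes. Others were chosen after their values were seen. Coordinates are bounds of merged loci in GRCm38, counted from 1. Promoters are from RefSeq (GRCm38.p6). Python 3.11.15, pandas 2.3.3, NumPy 2.4.6 and matplotlib 3.10.9 were used.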

Additional observations from a re-analysis of the deposited data

Results flagged for a closer look

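Of 29335 loci without a gene name, which the comparisons above did not use, 2998 reached 1 FPKM in any tissue. Of these, 4 met the 4-fold rule for genes higher in fat, against 30 of 19115 named genes (0.157%). This share is close to that of the named genes, so the count says nothing particular of the unnamed loci. The locus with the largest gap (4.37), chr15:82317485-82317858, had 4.40 FPKM in VAT, 1.96 in SCAT and 4.29 in BAT with 0 listed for every tissue outside fat. A locus at chr13:56678558-56681065 had 3.39, 2.72 and 1.59 FPKM in VAT, SCAT and BAT, and one at chr17:6879179-6879350 had 9.88, 1.24 and 1.27, and both were listed at 0 elsewhere. The fourth had 8.39, 4.54 and 3.86 FPKM in the depots and 0.244 in cortex. None has a replicate check.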

How the results depend on the processing

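The count of 30 genes higher and 6 lower in fat, and of 9 list members, changed by over 1.5 times under several settings. A gap of 1 gave 71, 28 and 15, and a gap of 3 gave 8, 1 and 4. The median depot in place of the lowest gave 107, 36 and 18. Names with a single locus gave 7, 2 and 1, as only these were compared. A pseudocount of 1 gave 14 higher and 3 lower, and a minimum of 5 FPKM 18 higher. Leaving out 1 library gave 34 to 140 higher, 6 to 33 lower and 9 to 28 list members. The other settings kept these counts within 1.5 times: a pseudocount of 0.01, no minimum, scaling by the median ratio, summed loci, FAIL loci kept, LOWDATA zeros as 0, and loci with 1 name. So did 2 settings chosen after seeing the data, loci of the annotated strand (21, 5 and 6) and a value in all 7 libraries (25, 6 and 9). The median ratio of a library to the mean of all 7 ran from -0.31 (SCAT) to 0.23 (muscle) on the log2 scale. Scaling removed this ratio, which raised SCAT and lowered muscle, and gave 40 genes higher, 29 of them shared with the 30. Of 684 single gap values under alternatives, 435 came from settings that by construction cannot lower the gap of a called gene (a library left out, the median depot, a pseudocount of 0.01, no minimum, LOWDATA zeros as 0, a single locus, a value in all 7) and say nothing of stability. Of the other 249, 142 equalled the reported gap, and 201 kept the call, while 43 lost it and 5 turned. The minimum of 5 FPKM can remove a call without changing the gap, so an equal gap did not always keep the call. Among the 5 that turned were Ankef1 with summed loci (-0.41) and Gm14204 without loci of several names (-2.09). The rest, on the annotated strand, were Scd2 (-3.71), Fabp9 (-2.71) and Ffar2 (-0.052). No paired analysis was possible because each tissue has 1 library. With neither replicates nor counts, no difference here has an error, and a gap near the threshold cannot be told from one just outside it.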

Other observations

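Between 2-fold and 4-fold lay 41 names, chosen here after their values were seen. The genes named here are examples and stand for no class of genes, since no list was counted among the 41. Ccl8, a chemokine, had 15.2, 43.2 and 4.65 FPKM in VAT, SCAT and BAT and 1.49 in muscle. Ccl7, a chemokine of the same family, had 2.32, 2.16 and 17.8 FPKM and 0.487 in muscle. Ccr2, a chemokine receptor of monocytes, had 6.18, 8.34 and 4.92 FPKM and 2.35 in kidney, and Lat2, an adaptor of immune cells, 3.23, 10.03 and 4.40 FPKM and 0.758 in kidney. Rbp7, a retinol binding protein, had 79.7, 23.7 and 31.7 FPKM, 6.61 in muscle and at most 0.278 in the other tissues, and Sncg, the gene of gamma-synuclein, had 96.7, 64.6 and 18.9 FPKM and 7.76 in muscle.

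Leaving out BAT added 52 names, and those given here were picked with their values known. The immunoglobulin segment Igkv14-126 had 23.6 FPKM in VAT, 22.7 in SCAT and 0.766 in BAT. The segment Ighv5-12-4 is listed at 200490 FPKM in VAT, 1819400 in SCAT and 0 in the 5 other libraries. SCAT had the highest sum of lymphocyte markers (296 FPKM) and VAT the next highest (17.0). Cd52, a surface protein of lymphocytes and of the epididymis, had 413 FPKM in VAT, 129 in SCAT and 6.56 in BAT.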
